A study of Mus musculus with 4 samples.

Results

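Cyp11b1, Cyp21a1, Mc2r and Mrap are 4 of the 40999 features counted in mouse embryonic gonads, and they were selected by symbol as genes of corticoid synthesis and of the adrenocorticotropic hormone (ACTH) receptor that mark adrenal-like cells. The selection was made with their values in these libraries already known, so those values are given here as a description and no test is attached to them. Total RNA of wild-type C57BL/6J embryos was sequenced daily from E11.5 to E14.5, with 1 strand-specific, rRNA-depleted library per day. Each library came from a pool of at least 6 male and 6 female gonads of 2 litters, so XX and XY gonads cannot be told apart. The E11.5 pool was of whole genital ridges with the mesonephros, which was removed from E12.5 onward. No day has a replicate library, and every interval below covers counting error only.

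Corticoids and sex steroids are made from cholesterol along a shared route: Star moves cholesterol into mitochondria, Cyp11a1 cuts its side chain and 3β-hydroxysteroid dehydrogenase converts pregnenolone to progesterone. Steroid 21-hydroxylase (Cyp21a1) and 11β-hydroxylase (Cyp11b1) then act in sequence to give corticosterone, the main glucocorticoid of the mouse, whereas Cyp17a1 leads to androgens in fetal Leydig cells. ACTH acts through the melanocortin 2 receptor (Mc2r), which needs the small membrane protein Mrap to reach the cell surface and to bind ACTH. The adrenal cortex and the gonad arise from a common primordium, and cells with adrenal features are known from the fetal testis.

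The libraries held 25593453 to 31752562 counts. In the E14.5 library, 40.7% of all counts fell on Rn18s-rs5, an 18S rRNA gene copy, against 9.06% at E11.5 where it was also the top gene. Levels are therefore given as CPM (counts per 1000000 counts of the library) after scaling with edgeR's trimmed mean of M-values (TMM), where 3 counts correspond to between 0.0945 and 0.117 CPM of the total. Scaling by total counts instead shifted the median gene by -1.08 log2 units in E14.5 versus E13.5, by -1.05 in E14.5 versus E12.5 and by 0.16 in E12.5 versus E11.5. For the 4 genes, each direction that this turns is named where it occurs. Of the genes past 2-fold, the share that was higher was 80.4% in E14.5 versus E13.5 and 77.0% in E14.5 versus E12.5, against 2.40% and 3.88% with total counts. Because whole gonads were sequenced, fewer cells of a type and less RNA per cell cannot be told apart.

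Both corticoid enzyme genes were almost without reads in the first 2 libraries and were up-regulated at E13.5 and once more in the last one, where the direction of Cyp21a1 turns with TPM. Cyp11b1 lies on the minus strand of chr15:74834892-74841643 (mm10), with 2398 exonic bases. It had 5 counts at E11.5, then 1, 80 and 147 on the following days. Its TMM-scaled level was 0.146 CPM at E11.5 and 0.0319 at E12.5, with overlapping 95% Poisson intervals (0.0474 to 0.341 and 0.000807 to 0.178). The level was 2.02 (1.60 to 2.52) at E13.5 and 7.81 (6.60 to 9.18) at E14.5. These values separate the later libraries from the earlier ones, with the highest level in the last library. Per length, Cyp11b1 reached a TPM (counts per exonic base, set to a sum of 1000000 in every library) of 2.18 at E14.5, which placed it above 58.0% of the features detected in that library.

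Cyp21a1 lies on the minus strand of chr17:34801348-34804426, with 1923 exonic bases. It had 8 counts at E11.5, then 1, 45 and 65 on the following days. The scaled level was 0.234 (0.101 to 0.460) at E11.5 and 0.0319 (0.000807 to 0.178) at E12.5, then 1.14 (0.830 to 1.52) at E13.5 and 3.45 (2.67 to 4.40) at E14.5. The order of the libraries was therefore the same as for Cyp11b1, and again the intervals of the E11.5 and E12.5 libraries overlapped. In TPM, Cyp21a1 stood at 1.22 at E13.5 and 1.20 at E14.5, so its highest level fell on E13.5 on that scale.

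Mc2r, the receptor gene, differed from the enzymes in that it had at least 57 counts in every library. It lies on the minus strand of chr18:68406899-68429320, with 1860 exonic bases. It had 145 counts at E11.5, then 79, 136 and 57 on the following days. The scaled level was 4.23 (3.57 to 4.98) CPM at E11.5, then 2.52 (1.99 to 3.14), 3.44 (2.88 to 4.07) and 3.03 (2.29 to 3.93) on the following days. The E11.5 library was highest and the E12.5 library lowest, and neighbours in the order of levels, from E11.5 through E13.5 and E14.5 down to E12.5, had overlapping intervals. In TPM the levels were 3.51, 2.55, 3.80 and 1.09 from E11.5 to E14.5, which makes E13.5 the highest and E14.5 the lowest.

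Mrap, the accessory protein gene, was nearly absent at E11.5 and present from E12.5, earlier than the enzymes. It lies on the plus strand of chr16:90738324-90749785, with 1235 exonic bases. It had 4 counts at E11.5, then 21, 62 and 50 on the following days. The scaled level was 0.117 (0.0318 to 0.299), 0.670 (0.415 to 1.02), 1.57 (1.20 to 2.01) and 2.66 (1.97 to 3.50) CPM from E11.5 to E14.5. Levels thus followed the order of the days, with intervals that overlapped only between E13.5 and E14.5. On the other scales the E13.5 library was highest, with a TPM of 2.61 against 1.44 at E14.5.

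**Figure D1:**
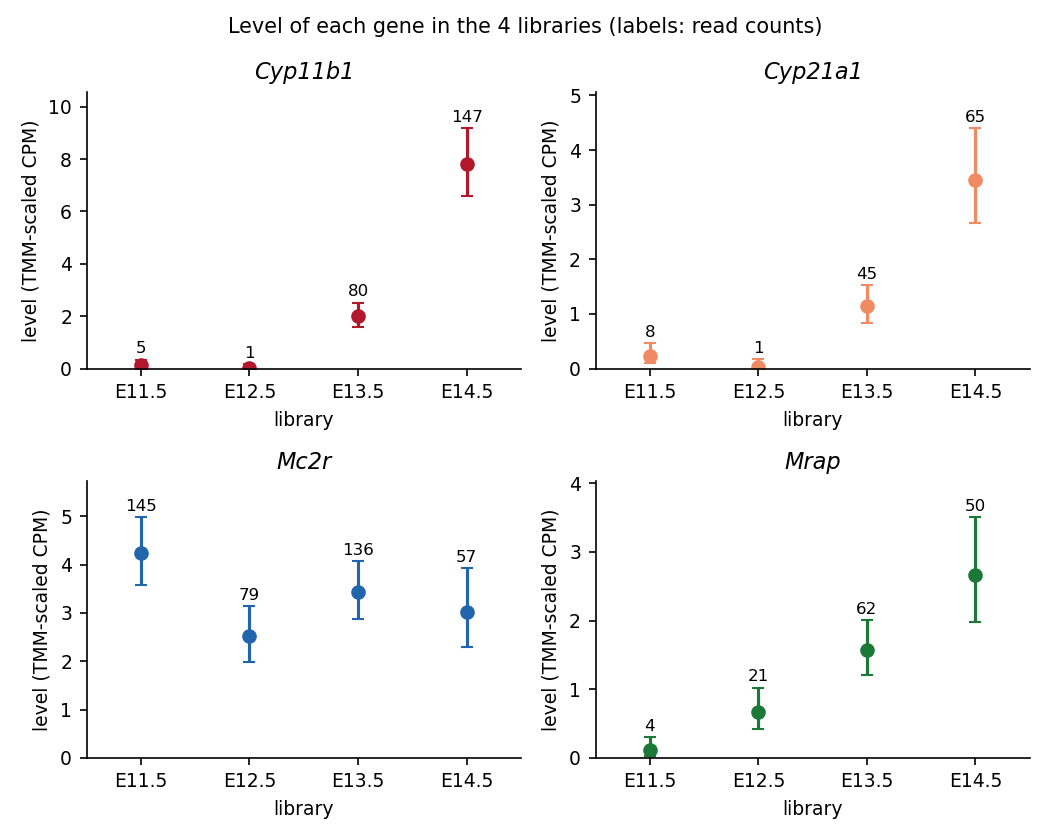
TMM-scaled level (CPM, linear axes from 0, 1 panel per gene) of Cyp11b1, Cyp21a1, Mc2r and Mrap in the 4 libraries, 1 per day, with bars for the 95% Poisson interval and the read count above each point. Cyp11b1 and Cyp21a1 stand at 0.0319 at E12.5 and at 7.81 and 3.45 at E14.5, whereas Mc2r stays between 2.52 and 4.23.

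Consecutive libraries were compared, together with E14.5 versus E12.5, which leaves out the only library with mesonephros. A gene was counted as past 2-fold where it was kept by edgeR's expression filter, its log2 fold change was at least 1 in size and the 95% Clopper-Pearson interval of that change left out 0. As 2 libraries are compared each time, this describes the libraries and not the days. The comparisons share libraries, so their values stand side by side and are not independent of each other.

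In E12.5 versus E11.5, Mrap was up-regulated with a log2 fold change of 2.48 (0.95 to 4.52). It was 1 of 2 of the genes kept by the filter, where 7.92% of the 19215 genes kept were past 2-fold and higher, 8.29% past it and lower and 16.2% past it in either direction. Mc2r was lower without passing 2-fold, at -0.75 (-1.16 to -0.34). Cyp11b1 and Cyp21a1 were not kept, and their counts of 5 and 8 against 1 and 1 gave intervals of -7.76 to 0.97 and -8.34 to 0.03 that include 0. Markers of tissue next to the gonad fell at the same step: summed over 6 mesonephros genes the level went from 113 to 24.6 CPM, and over 10 adrenal medulla and sympathetic genes from 35.3 to 4.08. The part of either in the change of Mc2r was not tested.

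In E13.5 versus E12.5, Cyp11b1, Cyp21a1 and Mrap passed 2-fold, which is 3 of 4 genes, all higher, beside 2.53% of the 19152 genes kept that were higher (1.37% lower, 3.91% in either direction). Cyp11b1 rose by 5.84 (3.47 to 11.31) on the log2 scale and Cyp21a1 by 5.01 (2.60 to 10.49). Both rest on a single count at E12.5, and with a prior count of 2 in place of the smaller value used otherwise they were 4.56 and 3.76. Mrap rose by 1.22 (0.49 to 2.01), from a count of 21. For Mc2r the log2 fold change was 0.45 (0.04 to 0.87), short of 2-fold.

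In E14.5 versus E13.5, 2 of 4 genes passed 2-fold, both enzymes, beside 5.89% of the 18992 genes kept that were higher (1.44% lower, 7.33% in either direction). Cyp11b1 rose by 1.97 (1.57 to 2.38) on the log2 scale, or 3.90-fold, with 0.89 by total counts and 0.33 by the ratio of TPM. Cyp21a1 rose by 1.62 (1.05 to 2.20), or 3.07-fold, with 0.54 by total counts and a turned direction of -0.017 by TPM. Mrap had a log2 fold change of 0.78 (0.21 to 1.34), which turned to -0.30 by total counts and -0.86 by TPM. Mc2r had -0.16 (-0.64 to 0.29), and -1.24 by total counts and -1.80 by TPM. Of the 4 genes, Cyp11b1 was thus the only one that was higher at E14.5 on all 3 scales, and it passed 2-fold on the TMM scale only.

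Over the longer step, E14.5 versus E12.5, the same 3 of 4 genes that passed in E13.5 versus E12.5 were past 2-fold and higher, beside 7.96% of the 18704 genes kept that were higher (2.38% lower, 10.3% in either direction). The log2 fold change was 7.74 (5.45 to 13.26) for Cyp11b1 and 6.56 (4.24 to 12.10) for Cyp21a1, and 6.15 and 4.99 with a prior count of 2. Mrap rose by 1.99 (1.24 to 2.81), with 0.95 by total counts and 0.50 by TPM. Mc2r had 0.28 (-0.24 to 0.79), and -0.77 by total counts and -1.22 by TPM. Cyp11b1, Cyp21a1 and Mrap were thus higher on each scale at E14.5 than at E12.5, and Mc2r was not.

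**Figure D2:**
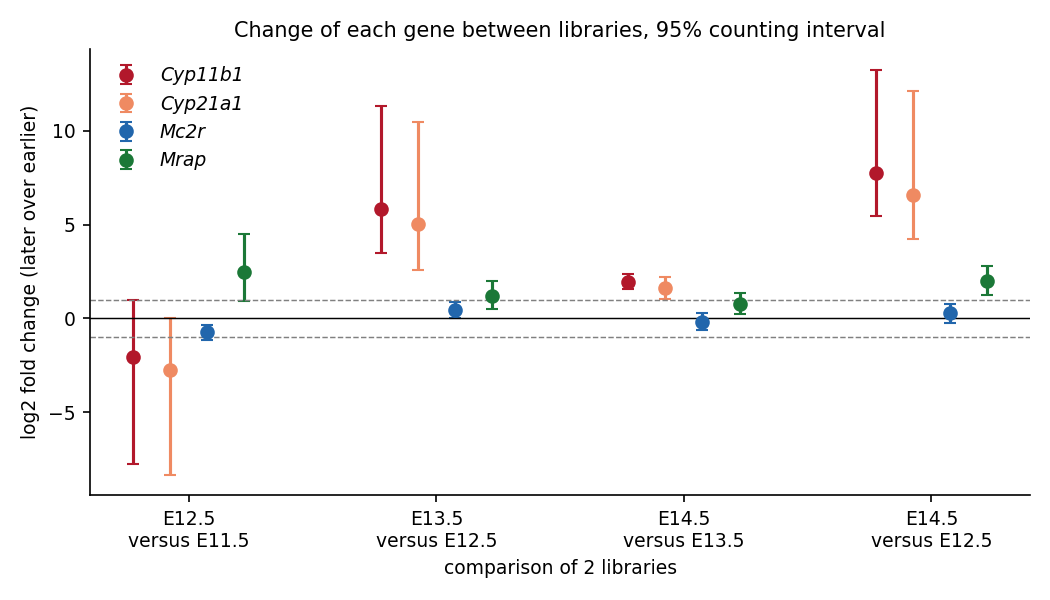
log2 fold change (later over earlier library) of each of the 4 genes in the 4 comparisons after TMM scaling of the pair, with bars for the 95% Clopper-Pearson interval and dashed lines at 2-fold. Mrap passes 2-fold in E12.5 versus E11.5 (2.48), and the enzymes do so from E13.5 versus E12.5 (5.84 and 5.01), with wide intervals where the E12.5 count of 1 enters, while Mc2r stays within the dashed lines.

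Ratios of genes within a library do not depend on the scaling. Of the counts on the pair of enzymes, Cyp11b1 took 38.5% (95% exact interval 13.9 to 68.4) at E11.5, then 50.0% (1.26 to 98.7), 64.0% (54.9 to 72.4) and 69.3% (62.7 to 75.5) on the following days. The intervals overlap between all 4 libraries, so no shift in the balance of the enzymes was detectable at this depth.

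Cyp11a1, which every steroid-making cell uses, gives a measure of the corticoid enzymes relative to shared steroid synthesis. In TPM, Cyp11b1 amounted to 1.59% (0.511 to 3.76) of Cyp11a1 at E11.5, then 0.0705% (0.00178 to 0.394), 0.796% (0.630 to 0.991) and 1.80% (1.52 to 2.13) on the following days. From E13.5 to E14.5 it thus increased relative to Cyp11a1 beyond counting error. Cyp21a1 amounted to 3.17% (1.35 to 6.35), 0.0879% (0.00222 to 0.491), 0.558% (0.407 to 0.747) and 0.995% (0.767 to 1.27) of Cyp11a1 from E11.5 to E14.5, and its intervals at E13.5 and E14.5 also did not overlap. Set against Cyp17a1, the enzyme at the branch to androgens, Cyp11b1 went from 0.585% (0.463 to 0.728) at E13.5 to 1.29% (1.09 to 1.52) at E14.5. Cyp21a1 went from 0.410% (0.299 to 0.549) to 0.714% (0.550 to 0.911) of Cyp17a1. Both enzymes were therefore higher at E14.5 than at E13.5 when read against the Leydig cell enzymes of the same library. E14.5 was not the highest library for Cyp21a1 per Cyp11a1, since the E11.5 ratio, on 8 counts, was above it without overlap of intervals. For Cyp11b1 per Cyp11a1, the E11.5 interval, on 5 counts, held the E14.5 ratio.

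Relative to Cyp11a1, Mc2r was lower in each later library, and Mrap kept a similar ratio to Star. The scaled level of Cyp11a1 itself was 6.80, 33.5, 188 and 320 CPM from E11.5 to E14.5, while that of Mc2r stayed between 2.52 and 4.23. Mc2r amounted to 59.4% (47.9 to 73.3) of Cyp11a1 in TPM at E11.5, then 7.18% (5.64 to 9.03), 1.74% (1.46 to 2.07) and 0.902% (0.682 to 1.17) on the following days, lower at each step beyond the counting intervals. Mrap stayed close to Star, at 7.59% (2.04 to 19.8), 6.79% (4.19 to 10.4), 5.73% (4.38 to 7.37) and 6.56% (4.86 to 8.68) of its TPM, with intervals that overlap in all 4 libraries. Against Cyp11a1, Mrap amounted to 2.47%, 2.88%, 1.20% (0.917 to 1.54) and 1.19% (0.884 to 1.57). Mrap per Mc2r amounted to 4.15% (1.12 to 10.9) at E11.5, then 40.0% (23.5 to 65.4), 68.7% (50.0 to 93.4) and 132% (88.5 to 197) on the following days. The accessory protein gene was thus far below the receptor gene per length at E11.5 and not distinguishable from it at E14.5.

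**Figure D3:**
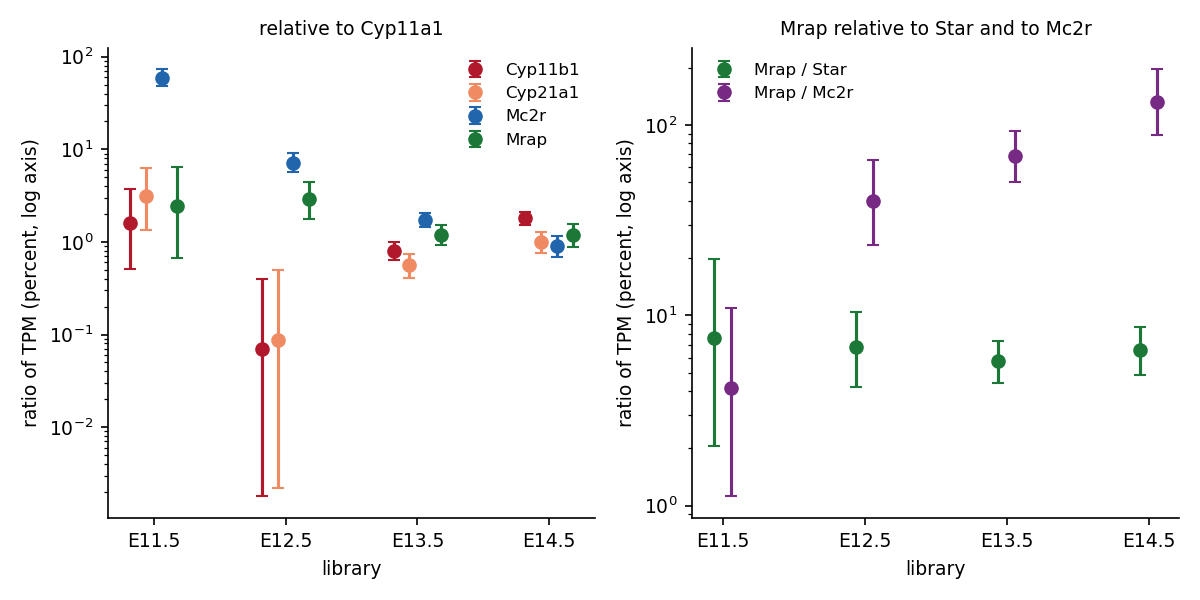
Ratios of TPM within each library in percent (log axes), with bars for the 95% counting interval: on the left Cyp11b1, Cyp21a1, Mc2r and Mrap relative to Cyp11a1, on the right Mrap relative to Star and to Mc2r. Both enzymes are higher at E14.5 than at E13.5 (1.80% against 0.796% and 0.995% against 0.558%), and stand at 1.59% and 3.17% at E11.5. Mc2r relative to Cyp11a1 goes from 59.4% to 0.902%, and Mrap per Star stays between 5.73% and 7.59%.

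Near-identical genes could share reads with the enzymes. Cyp11b2, the aldosterone synthase gene, lies 9366 bases from Cyp11b1 and its transcript is 87.1% identical over 1530 bases. Windows of 150 bases, the read length, were shared between them in 95 of 3016 cases. Cyp11b2 had 1, 0, 5 and 9 counts from E11.5 to E14.5, so at E14.5 there were 147 counts on Cyp11b1 to 9 on Cyp11b2. Cyp21a2-ps, a pseudogene 79068 bases from Cyp21a1, is 97.4% identical over 1182 bases, with 0 of 1909 windows shared, and had 2, 0, 2 and 1 counts. The longest identical run of this pair was 140 bases, just short of a window, and whether shorter reads fit both was not examined. Most reads of each pair were thus assigned to the gene described here, and how reads that fit both were treated is not given in the sources used here.

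By pattern over the 4 libraries, measured as the root-mean-square difference of log2 levels centred on each gene's mean among 17154 genes, Cyp21a1 was the third most like Cyp11b1 (0.723), after Gm1564 (0.604) and Dmrtc2 (0.608) and before Ankrd31 (0.771) and Ccnb3 (0.787). Closest to Cyp21a1 were Krt17 (0.401), Npy (0.415), Shcbp1l (0.651), Ccnb3 (0.668) and Ccdc79 (0.679), with Cyp11b1 at rank 11. For Mrap they were Hesx1 (0.0570), Spo11 (0.0760), AU022751 (0.0881), Arsi (0.0966) and Prelp (0.103), and Star stood at rank 8 (0.145). Among the genes closest to Mc2r were Gal3st3 (0.0256), Tcea2 (0.0317), LOC102634300 and Srcrb4d (0.0433). Seen from Cyp11b1, Cyp11a1 was at rank 33, Star at 106, Mrap at 114, Ren1 at 1689, Hsd3b1 at 1771, Mc2r at 9008 and Cyp17a1 at 16793. These orders rest on only 4 points that share depth and scaling, and by Pearson correlation 0 of the 5 closest genes of each were shared, so Cyp21a1 was then not among the 5 closest to Cyp11b1.

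Most of the steroid route rose earlier than the enzymes. Of 12 measured genes of shared and corticoid steroid synthesis other than the 4 described, 10 were kept in each comparison, and 7 rose in E12.5 versus E11.5, none fell and 3 did not pass, beside 7.92% of all genes kept that were higher and 8.29% that were lower. Star had 171, 1003, 3510 and 2473 counts from E11.5 to E14.5, Cyp11a1 233, 1049, 7439 and 6026, and Cyp17a1 5, 1437, 10503 and 8720. In E13.5 versus E12.5, 4 rose (Star, Cyp11a1, Hsd3b1 and Cyp17a1) and Hsd3b6 fell, beside 2.53% and 1.37% of all genes. In E14.5 versus E13.5 none rose and Hsd3b6 fell, beside 5.89% and 1.44%. Cyp11b1 and Cyp21a1 therefore passed 2-fold at the last step, where Star and Cyp11a1 upstream of them and Cyp17a1 at the branch to androgens did not. The log2 fold changes were 0.58 for Star, 0.79 for Cyp11a1 and 0.82 for Cyp17a1 after TMM scaling, all of which the shift of total counts (-1.08) turns to lower. By total counts, 5 of the 10 genes were past 2-fold at that step. The median log2 fold change of the list was 1.75, 0.58 and 0.15 over the 3 steps, against -0.0041, 0.0017 and 0.0051 over all genes kept.

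The 27 measured genes of ACTH signalling downstream of or beside Mc2r took another course. In E12.5 versus E11.5, 6 of 25 kept rose (Mc4r, Adcy7, Adcy9, Prkar2b, Pde8a and Pde8b) and 2 fell (Adcy8 and Pde11a), beside 7.92% and 8.29% of all genes kept. In E13.5 versus E12.5, 1 of 26 passed, Prkar2b, a regulatory subunit of protein kinase A, which rose by 1.28, beside 2.53% of all genes. In E14.5 versus E13.5, 4 of 26 rose (Mc4r and the adenylyl cyclase genes Adcy2, Adcy5 and Adcy8), beside 5.89% of all genes, and by total counts 15 of the 26 were past 2-fold. In E14.5 versus E12.5, 6 of 25 rose (Mc4r, Adcy2, Adcy5, Adcy7, Adcy8 and Prkar2b) and none fell, beside 7.96% of all genes that were higher, and 11 were past 2-fold by total counts. The list's median log2 fold change stayed between -0.05 and 0.18 in the 4 comparisons. Mrap2, the other Mrap family member, had 9, 9, 11 and 4 counts, fewer than Mrap at each day from E12.5.

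Other adrenal cortex markers were also read, of which Hsd3b6 and Cyp11b2 are on the steroid synthesis list as well. Of 9 genes, 4 of 6 kept rose in E12.5 versus E11.5 (Hsd3b6, Pik3c2g, Scarb1 and Nr5a1), beside 7.92% of all genes kept. In each of the next 2 steps 1 of 7 passed, Hsd3b6, which fell, beside 1.37% and 1.44% of all genes that were lower. In E14.5 versus E12.5, Akr1b7 and Scarb1 rose (1.50 and 1.28) and Hsd3b6 fell, so that 3 of 6 kept passed beside 10.3% of all genes. As CPM of the total, Akr1b7 was at 1.37 and 1.87 and Scarb1 at 92.5 and 109 in these libraries, which is short of 2-fold. In TPM, Akr1b7 was at 1.68 in both and Scarb1 at 41.0 and 35.2, so Scarb1 turned to lower. Hsd3b6, a 3β-hydroxysteroid dehydrogenase known from the adrenal zona glomerulosa, had 132, 311, 123 and 24 counts, and its transcript is 88.0% identical to that of Hsd3b1 over 1342 bases. Akr1b7, an aldose reductase-like gene of the adrenal cortex and of fetal gonadal cells, had 25, 35, 78 and 59 counts. Akr1c18 had 7, 9, 18 and 3 counts and Agtr1b 2, 1, 4 and 4. Nr5a1 and Scarb1 are also read in other steroid-making cells of the gonad, so this list is not particular to the adrenal. By total counts, 4 genes of the list were past 2-fold in E14.5 versus E13.5.

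Markers of the other cell types in the pools moved with the enzymes to different degrees. The summed level of 9 fetal Leydig cell genes was 46.7, 320, 998 and 1557 CPM from E11.5 to E14.5. Star, Cyp11a1, Hsd3b1 and Cyp17a1 are also on the steroid synthesis list, so the 2 lists are not separate. At E14.5 they stood at 131, 320, 193 and 463 CPM. Of the 9, 8 rose at E12.5 and 8 at E13.5 and none passed 2-fold in E14.5 versus E13.5, beside 7.92%, 2.53% and 5.89% of all genes kept that were higher. Their median changes were 3.70, 1.62 and 0.78, the last of which is below the shift of total counts. With Insl3, which had no count at E11.5, set to 3 counts there, the first median was again 3.70. The Leydig marker Insl3 had 0, 47, 280 and 247 counts. Adrenal medulla and sympathetic genes summed to 35.3, 4.08, 4.53 and 4.62 CPM. Of 9 kept, 8 fell at E12.5, beside 8.29% of all genes kept that were lower. At E13.5, 1 of 5 kept rose, Phox2a, beside 2.53% that were higher. Phox2a rests on 5 and 24 counts and did not pass with a minimum of 10 counts in both libraries. Of the defining genes of this list, Th had 93, 2, 10 and 11 counts, Dbh 315, 3, 5 and 2, Chgb 94, 6, 8 and 1, and Pnmt 9, 10, 8 and 6. In E14.5 versus E12.5 none of the 4 genes of this list that were kept passed 2-fold, beside 10.3% of all genes kept. Th, which the filter left out there, had a log2 fold change of 3.11 (1.01 to 6.42) on 2 and 11 counts. Adrenal cortex genes as a list summed to 104, 258, 314 and 374 CPM. Scarb1 and Nr5a1, which are not particular to the adrenal, held most of this sum, with 182 and 179 CPM at E14.5. The summed counts of the adrenal cortex list were 12435 at E13.5 and 7030 at E14.5 in libraries of similar totals, so by total counts the last step was downward.

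**Figure D4:**
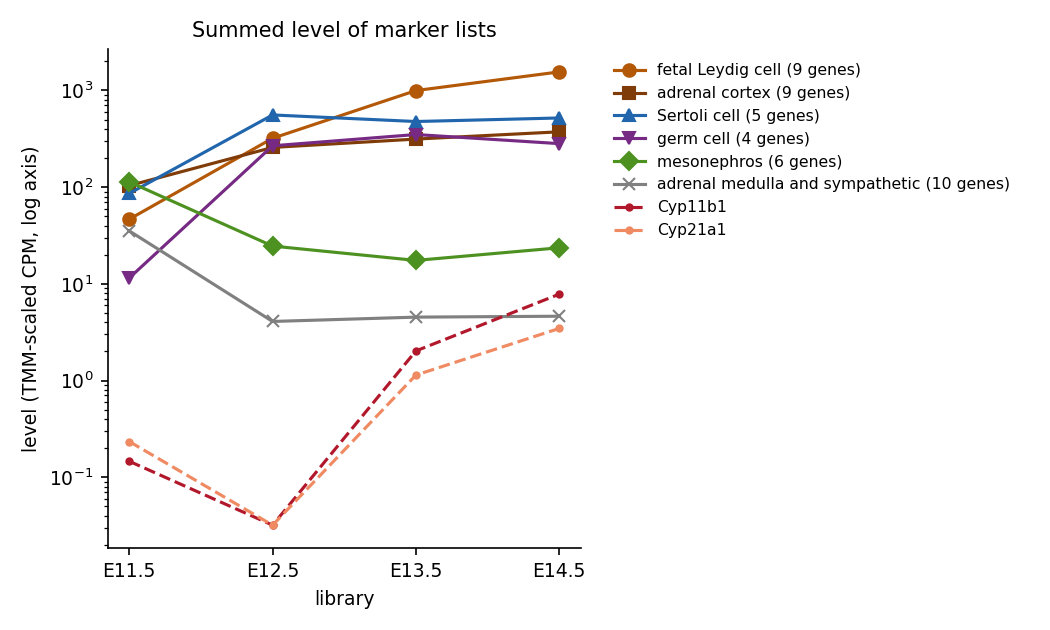
Summed TMM-scaled level (CPM, log axis) of 6 marker gene lists (solid lines) and the levels of Cyp11b1 and Cyp21a1 (dashed lines) in the 4 libraries, 1 per day. The 9 fetal Leydig cell genes go from 46.7 to 1557 and the 10 adrenal medulla and sympathetic genes from 35.3 at E11.5 to between 4.08 and 4.62 afterwards, while Cyp11b1 goes from 0.0319 at E12.5 to 7.81 at E14.5.

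The listed Sertoli cell, pregranulosa cell and germ cell markers passed 2-fold mostly at E12.5, before the enzymes. The germ cell list does not stand for all germ cell genes. Gm1564 (Meioc), which the paper places in meiosis, is not on it. This gene had 17, 27, 496 and 492 counts from E11.5 to E14.5, with its rise at E13.5, as for the enzymes. Summed levels from E11.5 to E14.5 were 86.2, 559, 478 and 520 CPM for 5 Sertoli cell genes, 128, 177, 228 and 190 for 5 pregranulosa cell genes, while the 4 germ cell genes had 394, 8401, 13858 and 5309 summed counts. None of these 14 genes passed 2-fold in E13.5 versus E12.5, which is close to the 3.91% of all genes kept that passed. At the step before, 11 had risen, beside 7.92% of all genes kept that were higher. In E14.5 versus E13.5 the pregranulosa gene Bmp2 fell (-1.24), and in E14.5 versus E12.5 Foxl2, another of them, rose (1.49), beside 1.44% of all genes kept that were lower and 7.96% that were higher. The 6 mesonephros genes summed to 113, 24.6, 17.5 and 23.6 CPM. The part of any of these cell types in the values of the 4 genes was not tested.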

How the data were processed

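The 4 libraries were made with the SEQuoia Complete Stranded kit after rRNA depletion. According to the study's methods, the authors ran a BioRad toolkit on mm10 (Cutadapt, STAR, removal of duplicates with UMI-tools, featureCounts, versions not given in the sources used here). The deposited tables, 1 per library, hold per gene whole counts, and RPKM and TPM that the authors computed from those counts and exonic length. RPKM was not used. No p-value is given for a gene, since each group has 1 library. Counts were filtered with edgeR's filterByExpr (10 counts) and scaled by TMM within the pair, and log2 fold changes used a prior count of 0.125 (edgeR 4.0.16, R 4.3.3), with Clopper-Pearson and Poisson intervals at 95% (scipy 1.17.1). A ratio of TPM within a library took the interval of the counts behind it. The authors used edgeR, and how the spread was set is not given in the sources used here. An edgeR exact test at preset coefficients of variation of 0.1 and 0.4 was run as an alternative. DESeq2 1.42.0 size factors were another alternative. Similarity of transcripts was computed with blastn 2.17.0 on the reference transcripts. The 4 genes and the 10 gene lists were chosen with earlier results of these data known. The text names all 4 genes, list genes past 2-fold or defining a cell type or pathway step, the 5 genes most like each of the 4 (1 of which is not reported here), and near-identical or neighbouring genes. Likeness took genes with 30 counts in at least 1 library and used 3 counts as the lowest level. Cyb5a, listed for steroid synthesis, and the promoter and protein sequences of the 4 genes were not analysed here. Samples were grouped by the day in their titles.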

Additional observations from a re-analysis of the deposited data

How the results depend on the processing

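Each group has 1 library, so no library could be left out. No paired analysis was possible because no group has replicates. The depth limits Cyp11b1 and Cyp21a1 at E11.5 and E12.5, where 1 to 8 counts set the intervals. DESeq2 size factors, TMM over all 4 libraries, a prior count of 2 and total counts without the 10 most abundant genes of each library kept all 16 log2 fold changes of the 4 genes within their counting intervals and directions. Total counts and TPM changed 6 of 16 each. In E14.5 versus E13.5, total counts gave 0.89 for Cyp11b1, 0.54 for Cyp21a1, -1.24 for Mc2r and -0.30 for Mrap, and TPM gave 0.33, -0.017, -1.80 and -0.86. In E14.5 versus E12.5, total counts gave -0.77 for Mc2r and 0.95 for Mrap, and TPM gave -1.22 and 0.50. The large count on Rn18s-rs5 enters the E14.5 total, and its part was not tested. With libraries numbered in order of day, the highest level moved to library 3 for Cyp21a1, Mc2r and Mrap by TPM and for Mrap by total counts.

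Genes past 2-fold numbered 3113, 748, 1392 and 1935 in the 3 consecutive comparisons and in E14.5 versus E12.5. Intervals wholly past 2-fold left 1727, 166, 588 and 897, and the edgeR exact test at a coefficient of variation of 0.4 left 286, 1, 31 and 72. At 0.1 it gave 360 in E13.5 versus E12.5, and 925 for E14.5 versus E13.5. A minimum of 10 counts in both libraries gave 490 in E13.5 versus E12.5. Total counts gave 11533 in E14.5 versus E13.5 and 10395 in E14.5 versus E12.5. In the lists, total counts in E14.5 versus E13.5 gave 5 genes past 2-fold for steroid synthesis, 15 for ACTH signalling, 4 each for adrenal cortex, mesonephros, pregranulosa cell, germ cell and corticoid response, 3 for adrenal medulla and 2 for Sertoli cell. In E14.5 versus E12.5 they gave 11 for ACTH signalling, 3 for Sertoli cell and 2 each for adrenal medulla, mesonephros, pregranulosa cell, germ cell and corticoid response. The minimum of 10 counts gave 3 and 0 for adrenal medulla in the first and the second consecutive comparison, and 1 for mesonephros in the second and the third. Of the 5 genes most like each of the 4, Pearson correlation shared 0 for all 4, and a minimum of 100 counts shared 3 for Cyp11b1, 1 for Cyp21a1 and 3 for Mrap.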

Other observations

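Genes through which corticoids act were read in all 4 libraries, ahead of the enzymes. Nr3c1, the glucocorticoid receptor gene, had 1116, 1162, 1977 and 1145 counts from E11.5 to E14.5 and passed 2-fold in none of the 4 comparisons. Nr3c2, the mineralocorticoid receptor gene, had 23, 75, 129 and 57 counts and rose by 1.83 on the log2 scale in E12.5 versus E11.5. Fkbp5, a co-chaperone gene that glucocorticoids are known to induce, rose by 1.10 at the same step, with log2 fold changes of 0.03 and -0.16 in the next 2 steps, where Cyp11b1 and Cyp21a1 rose. Of the 6 genes of corticoid receptors and response, 2 rose in E12.5 versus E11.5 and none passed 2-fold afterwards after TMM scaling, while 4 did by total counts in E14.5 versus E13.5. Over all genes kept, 16.2% passed in E12.5 versus E11.5, and 3.91% and 7.33% in the next 2 steps, so none of 6 is near those later shares.

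The genes of the enzymes that interconvert active and inactive corticoid differed in counts. Hsd11b2, whose product inactivates corticosterone, had 1177, 2094, 1926 and 912 counts and did not pass 2-fold in any comparison, with 0.96 in E12.5 versus E11.5. Hsd11b1, whose product regenerates active corticoid, had 8, 7, 4 and 2 counts.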
